A study of Mus musculus with 6 samples.

Results

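Endothelial cells of the liver express transcription factors that set their identity and surface molecules that mark their state, and 10 of these genes are described here. The transcription factors were Gata4, Meis2, Erg, Sox17, Sox18, Klf2 and Klf4, and the molecules associated with capillarization were Cd34, Plvap and Cav1. The genes were chosen by symbol, with earlier results of these data known, from the 19349 gene symbols of the deposited count tables. All 10 had a row in each of the 6 tables.

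The measurements are droplet single-cell RNA sequencing of a non-parenchymal preparation of liver, in which 571 hepatocyte-like cells were still found, from a mouse model of nonalcoholic steatohepatitis (NASH). All mice were male C57BL/6J, aged 8 weeks at the start, and had been fed a high-fat diet for 24 weeks. In the last 8 weeks they received intragastrically either vehicle (DMSO; 3 libraries) or 10 mg/kg of ginkgetin daily (3 libraries), a biflavone from plants. Both groups carried the disease model and no chow-fed library was analysed here, so the comparisons are between treated and untreated steatohepatitis and not with a healthy liver.

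The endothelium of the liver is of several kinds. Liver sinusoidal endothelial cells line the sinusoids, have open fenestrae and no organised basement membrane, and depend on GATA4, which in mice directs the sinusoidal program and restrains the program of continuous capillaries. In chronic injury these cells lose their fenestrae, lay down a basement membrane and gain markers such as CD34, a process named capillarization. The pericentral cells, at the end of the sinusoid around the central vein, supply Wnt2 and Rspo3, which pattern the hepatocytes, while the vascular endothelium of the larger vessels carries von Willebrand factor. KLF2 and KLF4 are the factors through which endothelial cells respond to laminar flow, acting downstream of the MEF2 family. SOX17 and SOX18 belong to the SOXF family of vascular development, and ERG is an ETS factor that maintains endothelial junctions and homeostasis. PLVAP forms the diaphragms of fenestrae and caveolae, and caveolin-1, the product of Cav1, is the main coat protein of caveolae.

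Promoter sequences were available for 6 members, and not for Plvap, Gata4, Sox17 and Sox18. Of those available, 3 are shown. They are Klf2 and Klf4, whose difference between groups shifted in the same direction from one endothelial class to another, and Cd34, whose group means lay furthest apart in fold. Each sequence is the stretch of 200 bases that ends 50 bases before the RefSeq start site (GRCm38.p6), read 5′ to 3′ on the strand of the gene. The stretches lie at chr8:72318812-72319011 on the plus strand for Klf2, chr4:55532526-55532725 on the minus strand for Klf4 and chr1:194938571-194938770 on the plus strand for Cd34, and none overlaps an exon of the GENCODE annotation. Capitals mark matches to 6 motifs searched on both strands.
Klf2: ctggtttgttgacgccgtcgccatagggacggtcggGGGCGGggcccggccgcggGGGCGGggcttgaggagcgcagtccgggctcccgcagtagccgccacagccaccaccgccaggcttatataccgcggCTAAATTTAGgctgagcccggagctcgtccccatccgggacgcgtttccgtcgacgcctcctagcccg
Klf4: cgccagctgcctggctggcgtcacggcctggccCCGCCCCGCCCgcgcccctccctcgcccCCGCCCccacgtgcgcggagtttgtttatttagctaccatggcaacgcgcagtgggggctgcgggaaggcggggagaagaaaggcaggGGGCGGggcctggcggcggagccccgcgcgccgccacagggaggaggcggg
Cd34: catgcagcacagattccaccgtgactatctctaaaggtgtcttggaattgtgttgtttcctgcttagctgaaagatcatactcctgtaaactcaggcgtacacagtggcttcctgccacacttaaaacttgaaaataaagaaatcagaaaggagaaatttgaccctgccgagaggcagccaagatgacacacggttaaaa

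The Klf2 stretch held 2 matches to the GC box (GGGCGG) bound by the SP and KLF families and 1 match to the MEF2 motif, which begins 118 bases before the start site. The Klf4 stretch held 4 matches to the GC box, the first 2 of which overlap, and none to the MEF2 motif, while the Cd34 stretch held none of the 6. Among the 32851 promoter stretches of the same length, 24.6% held the GC box and 2.42% the MEF2 motif. The GATA motif (GATAA) was held by 19.3% of the stretches, the KLF motif (CCACCC) by 22.4%, the ETS motif (CGGAAG) by 9.25% and the SOX motif (ACAATG) by 8.94%, and no stretch shown held any of these. The GC content was 70.5% for Klf2, 76.5% for Klf4 and 43.5% for Cd34, against a median of 51.5%. Promoters of Erg, Meis2 and Cav1 are also listed in that table. A match describes the letters only.

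Before any filter, the barcodes of a library held 13128697 to 61796882 unique molecular identifiers (UMIs, which count captured transcripts once each). Cells with 250 to 5000 genes detected and under 5% mitochondrial counts were kept, 27544 of 33168 barcodes. Of these, 7959 were endothelial-like and were clustered again without the 10 genes, so that a gene described here did not place any cell. From markers, 5194 cells were sinusoidal-like, 2089 pericentral-like and 654 vascular-like, and 22 that were led by hepatocyte genes stayed unnamed. The sinusoidal-like class pooled 3 sub-clusters, and its name rests on sub-clusters 2 (1677 cells, led by Ctsl, Clec4g and Fcgr2b) and 3 (1309 cells, led by Cxcl9, Lyve1 and Esm1). Sub-cluster 0 (2208 cells) was led by Ntn4, Efnb1, Ly6a, Msr1, Fos, Dusp1, Klf2, Timp3, Junb and Ltbp4, so the member Klf2 is itself a leading gene there. In it 6 sinusoidal markers were detected, but its 10 leading genes held none of them and 2 vascular markers, Ly6a and Ltbp4. Its results are therefore also given by number. Wnt2 averaged 446 CPM (counts scaled to a common library total, the level used throughout, computed on the UMIs of all cells of a class in a library) in pericentral-like cells, 63.0 CPM in sinusoidal-like cells and 20.4 CPM in vascular-like cells. Vwf averaged 616 CPM in vascular-like cells, 34.3 CPM in sinusoidal-like cells and 22.5 CPM in pericentral-like cells. Stab2 averaged 682 CPM in sinusoidal-like, 973 CPM in pericentral-like and 98.8 CPM in vascular-like cells, so the first pair of classes shared the sinusoidal scavenger receptor. Of the lymphatic markers, Ccl21a averaged 61.5 CPM in vascular-like cells, from 0 to 198 CPM over libraries. It reached at most 3.16 CPM in pericentral-like cells and was at 0 CPM in sinusoidal-like cells.

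Replicate 3 of each group stood apart from replicates 1 and 2 in its barcodes, gene annotation and depth, and the values of several members follow this split. The median depth of sinusoidal-like cells was 2149 to 2740 UMIs in replicates 1 and 2 and 7146 to 7508.5 UMIs in replicate 3. The share of endothelial-like cells with 2 or more markers of another class ran from 2.61% to 72.9% over libraries and classes, lowest in ginkgetin 1 and highest in vehicle 3. Libraries shared at most 85 barcodes. Before the second clustering, the endothelial-like cells of the groups lay mostly in different clusters: clusters 0 and 1 (2071 and 2066 cells) held at most 19 cells of any vehicle library, cluster 4 (1577 cells) held 1043 and 456 cells of vehicle 1 and vehicle 2 and at most 33 of any ginkgetin library, and 961 of the 978 cells of cluster 9 came from ginkgetin 3. Within the sinusoidal-like class, sub-cluster 3 was 30.3% to 45.2% of the cells in the vehicle libraries and 18.7% to 27.1% in the ginkgetin libraries, sub-cluster 0 was 32.5% to 34.7% and 42.6% to 49.0%, and sub-cluster 2 was 20.1% to 37.2% and 30.2% to 36.2%. Because replicate 3 stood apart, each test between groups is given with group as the only term and, where the replicate number as a block changes the call, with that block.

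Across the named cell classes, 9 of the 10 members were highest in an endothelial class, and Plvap was highest in stellate-like cells. Cells of clusters left unnamed are not included. Plvap averaged 1423 CPM ± 569 (SD, 5 libraries) in stellate-like cells, 553 CPM ± 148 (SD, n = 6) in vascular-like, 174 CPM ± 41.9 in pericentral-like and 151 CPM ± 116 in sinusoidal-like cells, and the last pair did not differ beyond its spread. Klf2 was also present in lymphocytes, at 697 CPM ± 153 (SD, n = 6) in B-like and 374 CPM ± 136 in T-like cells, in which it is known for its part in trafficking and quiescence. Klf4 reached 243 CPM ± 113 in monocyte-like cells, whose differentiation it is known to promote. Gata4 was 86.9 CPM ± 31.6 (SD, 5 libraries) in stellate-like cells, which are known to depend on it for quiescence. Cd34 was 34.3 CPM ± 10.6 in dendritic-like cells, above its 23.2 CPM ± 31.8 in pericentral-like cells by less than the spread. The mean levels of Sox17, Sox18, Erg, Meis2 and Cav1 stayed at or under 48.2 CPM in every named class that was not endothelial.

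**Figure D1:**
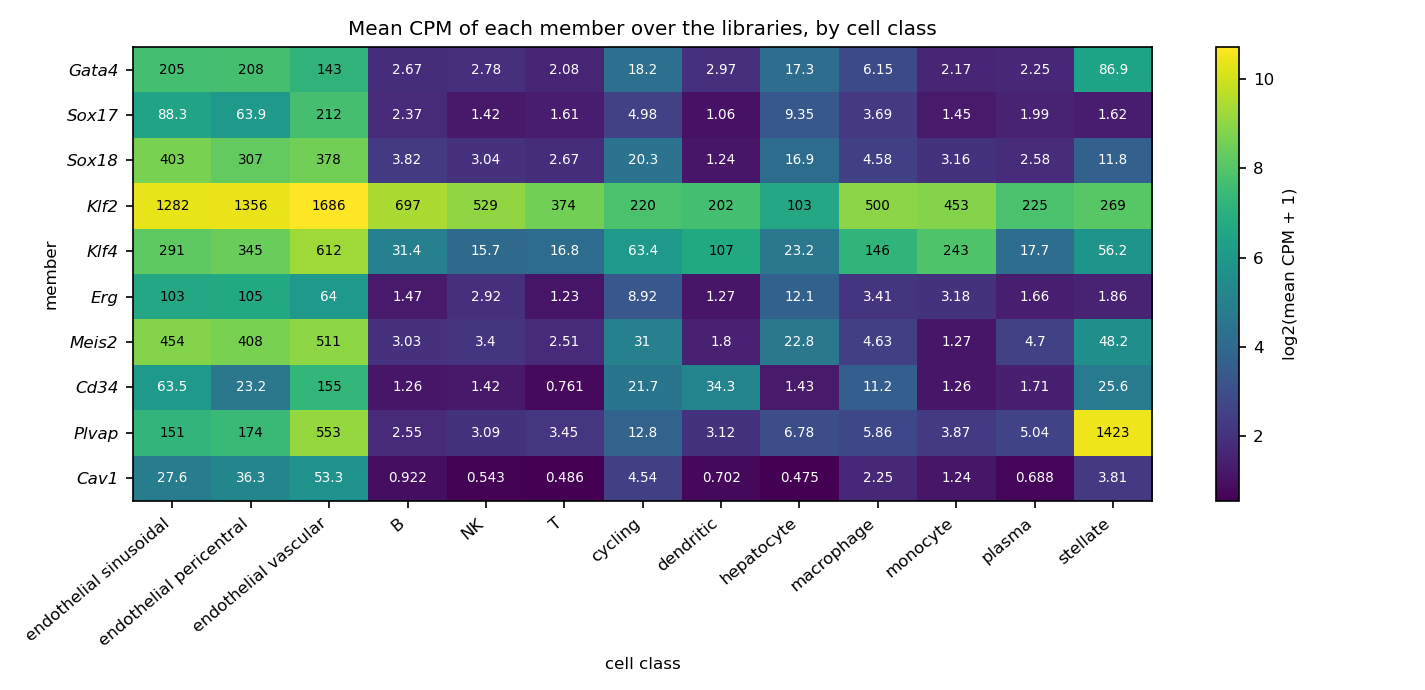
Mean CPM of each gene (rows) over the libraries in each named cell class (columns); the printed values are CPM and the colour is log2(mean CPM + 1). The endothelial classes are at the left, and Plvap in stellate-like cells, at 1423 CPM, is the one level outside them that exceeds the endothelial ones.

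Within the endothelium the members sorted the 3 classes differently. The order of Cd34 was vascular-like (155 CPM ± 54.7, SD, n = 6), sinusoidal-like (63.5 CPM ± 42.9) and pericentral-like (23.2 CPM ± 31.8), and it held in each of the 6 libraries. Sox17 was 212 CPM ± 60.2 in vascular-like, 88.3 CPM ± 18.7 in sinusoidal-like and 63.9 CPM ± 21.2 in pericentral-like cells, again in this order in all 6 libraries. Klf4 was higher in vascular-like than in sinusoidal-like cells in 6 of 6 libraries, by 0.79 to 1.79 on the log2 scale, and Plvap by 1.05 to 3.16. Gata4 was the reverse, lower in vascular-like than in sinusoidal-like cells in 6 of 6 libraries, at 143 CPM ± 53.9 against 205 CPM ± 91.3, a difference smaller than the spread over libraries. Gata4 at 208 CPM ± 80.9 in pericentral-like cells, Erg at 103 CPM ± 67.1 and 105 CPM ± 71.7 in the sinusoidal-like and pericentral-like classes, and Meis2 at 408 to 511 CPM over the 3 classes did not separate neighbouring classes beyond their spread. These orders are a description, since the classes were made from the same cells.

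**Figure D2:**
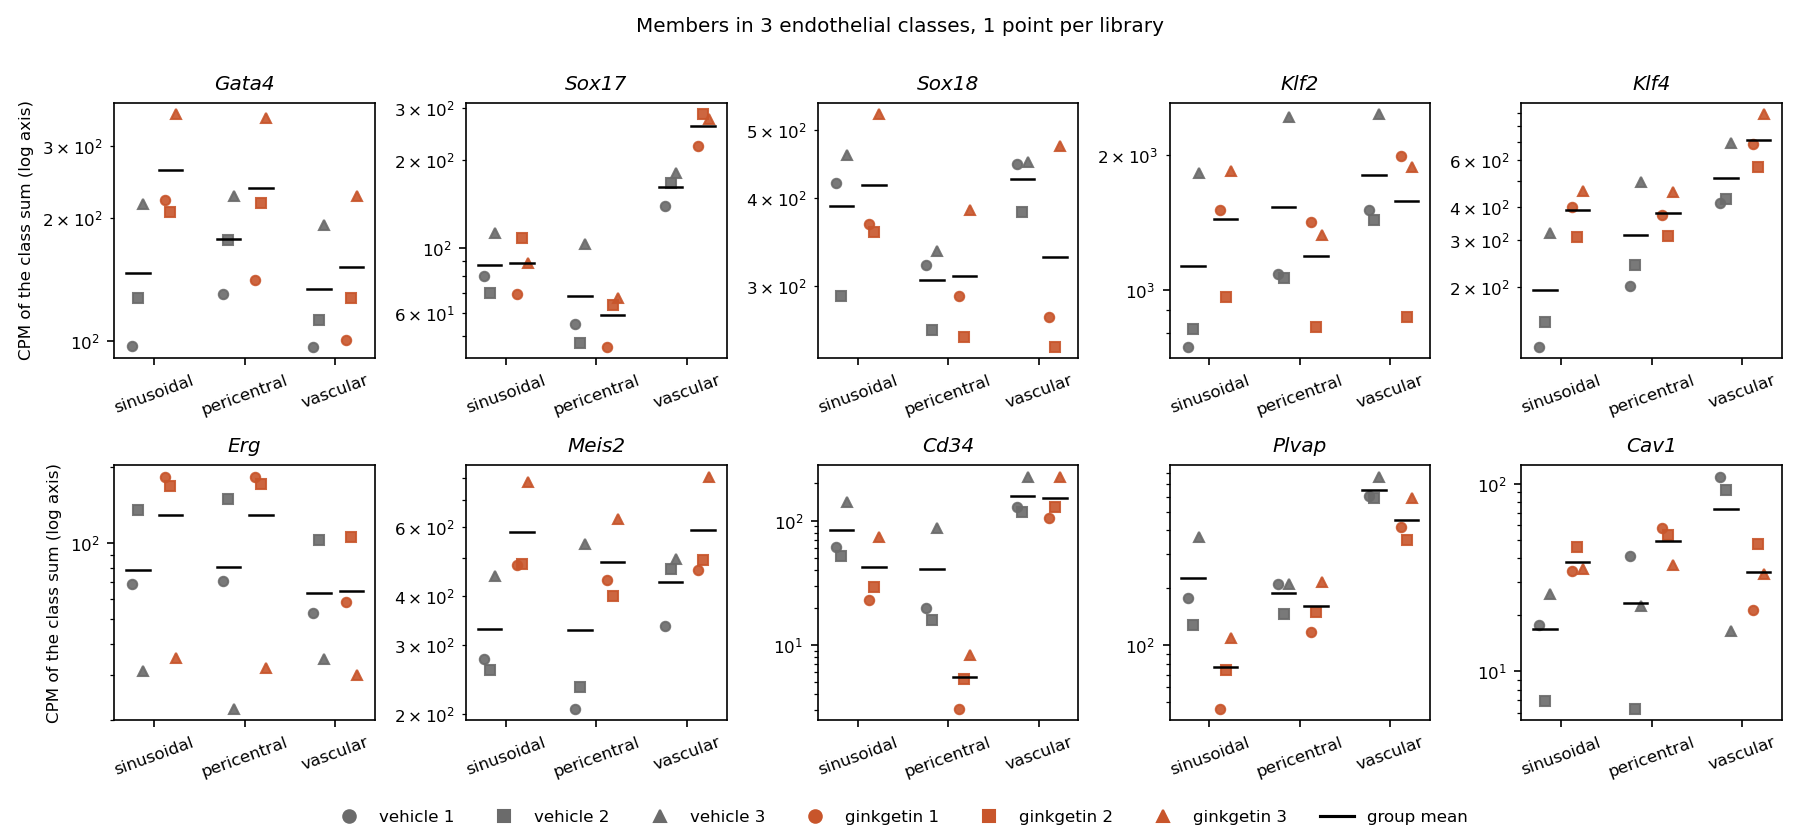
CPM of each gene (log axis) in the 3 endothelial classes, 1 point per library, with vehicle in grey, ginkgetin in orange, the shape giving the replicate number and the bar the group mean. In sinusoidal-like cells the 3 ginkgetin points of Plvap lie between 46.4 and 109 CPM, below all 3 vehicle points.

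In sinusoidal-like cells, the 3 capillarization genes did not move together: Plvap and Cd34 had lower means with ginkgetin and Cav1 a higher one, while Gata4, Klf4 and Meis2 had higher means. None of the 10 genes was called, that is, passed both a fold of 2 and an adjusted p of 0.05 (Benjamini-Hochberg) in edgeR's quasi-likelihood test, where 73 of the 9792 genes tested (0.746%) were. At an unadjusted p under 0.05 there were 6 of 10 members, against 14.2% of all genes, and 3 (Cd34, Plvap and Cav1) had a fold over 2, against 5.9%. DESeq2 called 1 member, Plvap, and 2.64% of its genes, and limma-voom called none. With the replicate number as a block edgeR called 2 members, Plvap and Cd34, and 3.97% of all genes, and with no minimum fold 5 members had an adjusted p under 0.05, against 10.5% of all genes.

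Plvap (chromosome 8, 71497765-71511752, minus strand in GRCm38, as are all positions below) was 176, 128 and 370 CPM in vehicle replicates 1, 2 and 3 and 46.4, 74.3 and 109 CPM in ginkgetin replicates 1, 2 and 3. The groups did not overlap, and 5.98% of all genes likewise lay lower with ginkgetin without overlap. The log2 fold change was -1.69 ± 0.36 (SE), adjusted p 0.0982, and -1.66 ± 0.21, adjusted p 0.00399, with the block. Summed stellate markers, the class in which Plvap was highest, were 33.7 to 90.2 CPM in the vehicle sums and 54.4 to 118 CPM in the ginkgetin sums; these ranges overlapped, and none of the 7 markers was at 0 in all libraries. Summed macrophage markers were lower with ginkgetin without overlap, at 133 to 244 CPM and 48.5 to 127 CPM, and summed dendritic markers higher without overlap, at 59.9 to 94.9 CPM and 110 to 146 CPM. Summed B markers were likewise higher without overlap, at 4.31 to 8.61 CPM and 9.07 to 50.4 CPM, and the 4 mesothelial markers were at 0 with vehicle and 0.216 to 1.60 CPM with ginkgetin, with Lrrn4 at 0 in all libraries. None of the 9 macrophage, 7 dendritic and 5 B markers was at 0 in all libraries, and their part in the values of the members in this class was not tested.

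Cd34 (chromosome 1, 194938819-194961279, plus strand), a sialomucin of haematopoietic progenitors and capillary endothelium, was 61.0, 51.9 and 142 CPM in the vehicle libraries and 22.9, 29.5 and 73.7 CPM in the ginkgetin libraries. The groups overlapped, because ginkgetin 3 lay above vehicle 1 and vehicle 2, but the log2 ratio of ginkgetin to vehicle was -1.11 within replicates 1 and 2 and -0.95 within replicate 3. Its log2 fold change was -1.18 ± 0.42, adjusted p 0.275, and -1.20 ± 0.16, adjusted p 0.00470, with the block. Without vehicle 3 the log2 fold change was -0.77, adjusted p 0.320, and without ginkgetin 3 it was -1.67, adjusted p 0.151.

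Cav1 (chromosome 6, 17306335-17341452, plus strand) was low, at 17.6, 6.99 and 25.9 CPM in the vehicle libraries and 34.1, 46.1 and 34.9 CPM in the ginkgetin libraries, from 7 to 247 UMIs per library. All ginkgetin values were above all vehicle values, as in 12.1% of all genes, with a log2 fold change of 1.02 ± 0.35, adjusted p 0.268, and 0.107 with the block.

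Meis2 (chromosome 2, 115863064-116065839, minus strand), a TALE homeobox factor, was the other member without overlap. It was 277, 260 and 450 CPM with vehicle and 480, 481 and 779 CPM with ginkgetin, a log2 fold change of 0.66 ± 0.22, adjusted p 0.255, and with the block 0.66 ± 0.11, adjusted p 0.0123. Gata4 (chromosome 14, 63198922-63271692, minus strand) was 97.3, 128 and 216 CPM with vehicle and 222, 207 and 359 CPM with ginkgetin, and the groups overlapped by the narrow step between vehicle 3 and ginkgetin 2. Its log2 fold change was 0.68 ± 0.26, adjusted p 0.299, and with the block 0.71 ± 0.15, adjusted p 0.0228. With the cell filter applied to UMIs in place of genes, which kept 44 and 57 cells of this class in vehicle 3 and ginkgetin 3, it was 0.28, adjusted p 0.766. Both genes were thus higher with ginkgetin by less than 2-fold, inside each barcode set.

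Klf4 (chromosome 4, 55527143-55532466, minus strand) was 119, 148 and 318 CPM with vehicle and 397, 307 and 457 CPM with ginkgetin, a log2 fold change of 0.88 ± 0.31, adjusted p 0.268, and with the block 0.93 ± 0.22, adjusted p 0.0336. Klf2 (chromosome 8, 72319033-72321656, plus strand) was 746, 817 and 1823 CPM with vehicle and 1506, 962 and 1838 CPM with ginkgetin. Its replicate 3 libraries were nearly equal while the others were not. Its log2 fold change of 0.23 ± 0.35 had an adjusted p of 0.844, and over 21 other settings it ran from 0.0563 to 0.574. Klf2 is also a leading gene of sub-cluster 0, whose share was higher with ginkgetin. The part of that share in the values of Klf2 and Klf4 was not tested. Klf2 and Klf4 are themselves rapidly inducible, and the summed level of 20 immediate-early and heat shock genes was higher with ginkgetin in replicates 1 and 2 and lower in replicate 3, at 4063, 4791 and 9643 CPM in the vehicle sums and 7075, 7080 and 8805 CPM in the ginkgetin sums; its part in their values was not tested. The members of that list did not share a direction: Hspa1b was 508 CPM ± 181 (SD, n = 3) with vehicle and 76.0 CPM ± 52.2 with ginkgetin, Atf3 was 106 CPM ± 51.5 and 42.4 CPM ± 12.7, and Dusp1 was 548 CPM ± 241 and 1305 CPM ± 319.

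The SOXF genes were close to equal in this class. Sox17 (chromosome 1, 4490931-4497354, minus strand) was 80.1, 69.9 and 113 CPM with vehicle and 69.9, 108 and 88.8 CPM with ginkgetin, and Sox18 (chromosome 2, 181669836-181671640, minus strand) was 420, 290 and 460 CPM with vehicle and 368, 358 and 525 CPM with ginkgetin. Their log2 fold changes were -0.11 ± 0.22 and -0.08 ± 0.21, less than 1 SE from 0. Erg (chromosome 16, 95359169-95586593, minus strand) was 68.9, 135 and 31.1 CPM with vehicle and 183, 167 and 35.1 CPM with ginkgetin. Erg was low in replicate 3 of both groups, in all 3 classes, and its log2 fold change of 0.58 ± 0.79 carried the largest SE of the 10 and ran from 0.14 without vehicle 3 to 1.27 without vehicle 2.

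The same genes were then compared within each sub-cluster of the sinusoidal-like class, and with sub-cluster 0 left out, both chosen after seeing the data. Plvap had log2 fold changes of -1.72 ± 0.43 in sub-cluster 0, -1.48 ± 0.33 in sub-cluster 2 and -1.79 ± 0.29 in sub-cluster 3, with adjusted p of 0.212, 0.176 and 0.0244. It was the one member called, in sub-cluster 3, where 1.22% of all genes were, against 0.128% in sub-cluster 0 and 0.182% in sub-cluster 2. With the block Plvap was called in each of the 3, where 2.63%, 2.89% and 5.76% of all genes were in sub-clusters 0, 2 and 3. Cd34 had log2 fold changes of -0.67 ± 0.47, -0.83 ± 0.51 and -1.51 ± 0.34 in sub-clusters 0, 2 and 3, with adjusted p of 0.721, 0.674 and 0.0809. With the block it was called in sub-cluster 3 (adjusted p 7.12e-05), while in sub-cluster 2 it had an adjusted p of 0.0318 and a fold under 2. The difference between sub-clusters was not tested. Also with the block, Cav1 was called in sub-cluster 2 (1.31 ± 0.34, adjusted p 0.0330) and Klf4 in sub-cluster 3 (1.18 ± 0.24, adjusted p 0.00279). With group as the only term, neither was called, and their adjusted p were 0.411 and 0.251. Meis2 had log2 fold changes of 0.55, 0.68 and 0.71 and Gata4 of 0.55, 0.78 and 0.72 in the 3 sub-clusters. With sub-cluster 0 left out of the class, Plvap was called, at -1.77 ± 0.31 with an adjusted p of 0.0449, among 1.25% of all genes, and with the block Plvap and Cd34 were, among 4.58%.

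In pericentral-like cells, Cd34 was the one member with an unadjusted p under 0.05. It was 19.8, 15.8 and 86.8 CPM with vehicle and 3.07, 5.33 and 8.28 CPM with ginkgetin, from 14, 5 and 47 UMIs and from 3, 14 and 24 UMIs. The groups did not overlap, as in 4.83% of all genes lower with ginkgetin, and the vehicle mean of 40.8 CPM ± 39.9 rested largely on vehicle 3. The log2 fold change was -2.89 ± 0.58, adjusted p 0.0858, and -2.97 ± 0.39, adjusted p 0.000873, with the block. Without vehicle 3 it was -1.89, adjusted p 0.155. Summed macrophage markers were 284, 275 and 183 CPM in the vehicle and 39.9, 121 and 63.1 CPM in the ginkgetin sums of this class, without overlap and in the same direction as Cd34, and none of the 9 was at 0 in all libraries; their part in its values was not tested. None of the 10 members was called in edgeR's test, where 64 of 7777 genes (0.823%) were, with 1 member at an unadjusted p under 0.05 against 10.3% of all genes, and 1 with a fold over 2 against 4.64%, while DESeq2 called Cd34 and 1.89% of its genes. With the block 1 member was called, against 3.38% of all genes, or 7.55% with no minimum fold.

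Plvap did not show the low values that it had in sinusoidal-like cells: it was 208, 146 and 209 CPM with vehicle and 117, 148 and 215 CPM with ginkgetin, a log2 fold change of -0.40 ± 0.24, adjusted p 0.649. Klf2 was 1085, 1063 and 2426 CPM with vehicle and 1415, 825 and 1322 CPM with ginkgetin, and Klf4 was 201, 241 and 495 CPM with vehicle and 371, 310 and 455 CPM with ginkgetin. Their log2 fold changes were -0.45 ± 0.36 and 0.18 ± 0.30, and the groups overlapped for each. Gata4, Meis2, Erg and Cav1 had log2 fold changes of 0.25 to 0.80 and Sox17 and Sox18 of -0.33 and -0.14, with adjusted p from 0.652 to 0.892. Without single libraries these values moved widely: Cav1 was 0.51 without vehicle 2 and 1.63 without vehicle 1, Erg was 0.0797 without vehicle 3 and 1.35 without vehicle 2, and Meis2 was 0.27 without vehicle 1 and 0.88 without vehicle 3. Gata4 ran from -0.0028 without ginkgetin 3 to 0.47 without ginkgetin 1, and Klf2 was -0.11 without vehicle 3 and -0.68 without ginkgetin 1.

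Vascular-like cells were the smallest class, with 46 to 264 cells per library, and edgeR called 3 of 6620 genes there (0.0453%) and no member, with 1 member at an unadjusted p under 0.05 against 5.92% of all genes and 1, Cav1, with a fold over 2 against 3.23%. DESeq2 called no member and 0.272% of its genes, and the block called no member and 0.816% of all genes, or 0.997% with no minimum fold. Sox17, which is known as an arterial factor, was 140, 166 and 180 CPM with vehicle and 223, 286 and 276 CPM with ginkgetin, higher in every ginkgetin library, as were 4.55% of all genes. Its log2 fold change was 0.70 ± 0.26, adjusted p 0.750.

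Plvap in this class was 601, 592 and 765 CPM with vehicle and 414, 354 and 590 CPM with ginkgetin, also without overlap, as in 6.44% of all genes lower with ginkgetin. Its log2 fold change was -0.55 ± 0.27, adjusted p 0.867, a smaller difference than in sinusoidal-like cells. Cd34 was 129, 117 and 227 CPM with vehicle and 106, 129 and 223 CPM with ginkgetin, a log2 fold change of -0.05 ± 0.30.

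Cav1 in vascular-like cells was 109, 92.9 and 16.4 CPM with vehicle and 21.2, 47.4 and 32.8 CPM with ginkgetin, on 4 to 64 UMIs per library, and the barcode sets went opposite ways, at -1.56 in replicates 1 and 2 and 1.004 in replicate 3 on the log2 scale. Its log2 fold change was -1.03, and it was -0.43 without vehicle 1 and -1.56 without vehicle 3. Klf4 was 411, 425 and 695 CPM with vehicle and 689, 563 and 888 CPM with ginkgetin, with ginkgetin 1 and ginkgetin 2 below vehicle 3 and a log2 fold change of 0.48 ± 0.29. Gata4, Meis2, Erg, Klf2 and Sox18 had log2 fold changes from -0.41 to 0.41, none of them with an unadjusted p under 0.05.

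**Figure D3:**
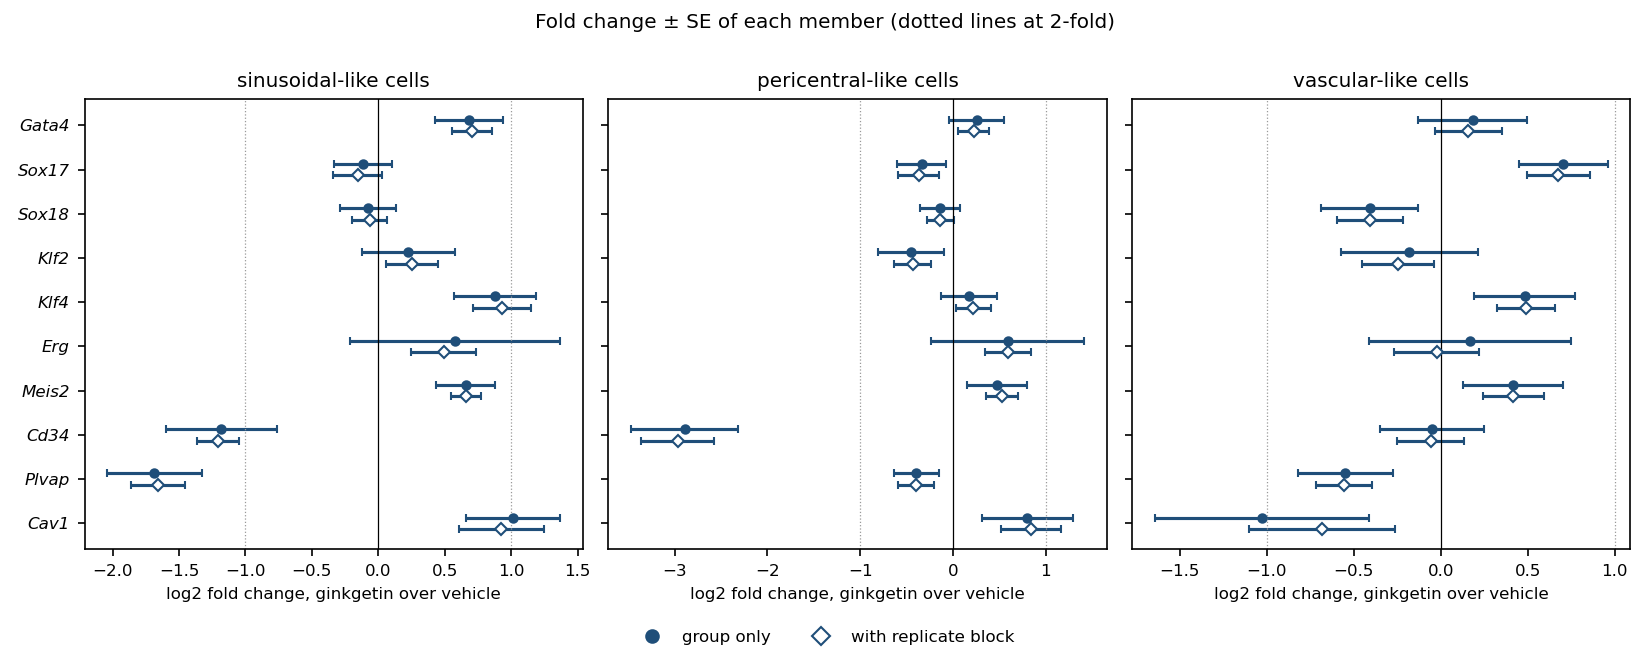
Log2 fold change of each gene, ginkgetin over vehicle, ± SE in each endothelial class, with group as the only term (filled circles) and with the replicate number as a block (open diamonds); dotted lines mark 2-fold. For Plvap in sinusoidal-like cells the estimate is -1.69 without and -1.66 with the block, and the SE 0.36 and 0.21.

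Whether the difference between groups depended on the class was tested in 1 edgeR fit over the 3 classes with the library as a block, so that each library served as its own control. Between pericentral-like and sinusoidal-like cells, 4 of the 10 members had an adjusted p under 0.05, against 26 of 9365 genes (0.278%). Between vascular-like and sinusoidal-like cells, 5 of the 10 did, against 290 genes (3.1%). Because the members were chosen with earlier results of these data known, these counts are descriptions and not a test of the set.

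For Plvap the log2 ratio of pericentral-like to sinusoidal-like cells was 0.24, 0.19 and -0.83 in the vehicle libraries and 1.33, 0.996 and 0.97 in the ginkgetin libraries. The difference of its fold changes was 1.27 ± 0.21 (SE), adjusted p 0.00113. For Klf4 the ratio was 0.76, 0.70 and 0.64 with vehicle and -0.10, 0.014 and -0.0043 with ginkgetin, so that the excess of Klf4 in pericentral-like cells was seen in the vehicle libraries and not in the ginkgetin ones. The difference for Klf4 was -0.69 ± 0.14, adjusted p 0.0142. Klf2 followed the same order, with ratios of 0.54, 0.38 and 0.41 with vehicle and -0.09, -0.22 and -0.48 with ginkgetin, a difference of -0.68 ± 0.14, adjusted p 0.00879. Cd34 had ratios of -1.62, -1.71 and -0.71 with vehicle and -2.90, -2.47 and -3.15 with ginkgetin, a difference of -1.75 ± 0.33, adjusted p 0.00524. No vehicle ratio overlapped a ginkgetin ratio in these 4 genes; of 9312 genes with a UMI in every sum of both classes, 6.57% lay higher with ginkgetin without overlap, as Plvap did, and 8.52% lower, as the other 3 did.

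The summed immediate-early and heat shock genes shifted between these classes in the direction of Klf2 and Klf4. Their sum was higher in pericentral-like than in sinusoidal-like cells in 3 of 3 vehicle libraries, at 4635, 5842 and 11025 CPM against 4063, 4791 and 9643 CPM, and lower in 3 of 3 ginkgetin libraries, at 6700, 6607 and 7029 CPM against 7075, 7080 and 8805 CPM. In vascular-like cells it was 7917, 8822 and 16430 CPM with vehicle and 11579, 10506 and 15610 CPM with ginkgetin. Its part in the differences for Klf2 and Klf4 was not tested.

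The difference for Cd34 rested on replicate 3. Within replicates 1 and 2 alone the difference for Cd34 was -0.88 with an adjusted p of 0.972 and that for Plvap 0.88 with 0.0643. Without vehicle 3 the difference for Cd34 was -1.17 with an adjusted p of 0.567, and without ginkgetin 3 it was -1.46 with 0.226. Without single libraries the difference ran from -0.77 to -0.60 for Klf2 and from -0.72 to -0.67 for Klf4. The adjusted p of Klf2 was above 0.05 without vehicle 1 (0.0541) and without ginkgetin 3 (0.0830) and 0.00495 to 0.0403 without any 1 of the other libraries. That of Klf4 was 0.0541 to 0.0710 without any 1 library other than vehicle 3, without which it was 0.0235. In replicates 1 and 2 alone the differences were -0.62 with 0.00715 and -0.76 with 0.0234, and with the highest doublet scores left out they were -0.71 with 0.000990 and -0.73 with 0.00381. With the filter on UMIs they were -0.29 and -0.15, both with an adjusted p of 1, and without a cell filter -0.52 with 0.127 and -0.41 with 0.566. With cells carrying markers of another class left out they were -0.61 with 0.0721 and -0.73 with 0.0929, and Cd34 was at -1.31 with 0.379; with the filter on UMIs Cd34 was at -1.27 with 0.126. With sub-cluster 0 left out of the sinusoidal-like class, 3 members had an adjusted p under 0.05, against 0.16% of all genes: Plvap (1.36, adjusted p 0.000292), Klf2 (-0.64, adjusted p 0.0301) and Cd34 (-1.54, adjusted p 0.0461), while Klf4 was at -0.54 with 0.215. With classes gated on their marker genes in place of clusters, none of the 4 kept an adjusted p under 0.05, and their differences were 0.94 for Plvap, -0.23 for Klf4, -0.23 for Klf2 and -1.14 for Cd34.

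Between vascular-like and sinusoidal-like cells, Plvap had log2 ratios of 1.77, 2.21 and 1.05 with vehicle and 3.16, 2.25 and 2.43 with ginkgetin, a difference of 1.08 ± 0.20, adjusted p 0.000727. The ratios of Cd34 were 1.09, 1.18 and 0.68 with vehicle and 2.21, 2.13 and 1.60 with ginkgetin, a difference of 1.11 ± 0.22, adjusted p 0.00174. Those of Sox17 were 0.80, 1.25 and 0.68 with vehicle and 1.67, 1.40 and 1.64 with ginkgetin, a difference of 0.85 ± 0.18, adjusted p 0.00240. For these 3 genes the vascular excess was larger in every ginkgetin library than in every vehicle library, as in 5.24% of the 8294 genes with a UMI in every sum of these classes. With the filter on UMIs, Plvap kept an adjusted p under 0.05 (0.96, adjusted p 0.000154), while Cd34 was at 0.99 with 0.105 and Sox17 at 0.73 with 0.276. Within replicates 1 and 2 alone Sox17 was at 0.68 with 0.0743.

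The remaining differences between these classes were less even. Klf2 had ratios of 1.01, 0.81 and 0.43 with vehicle and 0.40, -0.15 and 0.03 with ginkgetin, a difference of -0.51 ± 0.14, adjusted p 0.0282. The groups' ratios did not overlap, as in 10.8% of genes lower with ginkgetin. The difference was -0.37 with an adjusted p of 0.362 without vehicle 1, -0.51 with 0.112 without vehicle 2, -0.41 with 0.235 without ginkgetin 2 and -0.49 with 0.0821 without ginkgetin 3, whereas without vehicle 3 it was -0.64 with 0.00177 and without ginkgetin 1 it was -0.63 with 0.00929. It was -0.67 with 0.000232 in replicates 1 and 2 alone and -0.30 with 0.628 with the filter on UMIs. Cav1 had ratios of 2.63, 3.73 and -0.66 with vehicle and -0.69, 0.04 and -0.09 with ginkgetin, which overlap. Its difference of -1.75 ± 0.42, adjusted p 0.0101, was -0.91 with an adjusted p of 0.645 without vehicle 1, -1.47 with 0.0751 without vehicle 2 and -1.59 with 0.134 with the filter on UMIs, but -2.68 with 8.08e-07 without vehicle 3 and -2.72 with 1.79e-06 in replicates 1 and 2 alone. Klf4 and Gata4 missed the threshold, at -0.43 ± 0.14, adjusted p 0.124 (-0.69 with 0.00498 in replicates 1 and 2 alone), and -0.53 ± 0.20, adjusted p 0.181. With sub-cluster 0 left out, Plvap, Cd34, Sox17 and Cav1 kept an adjusted p under 0.05, against 3.56% of all genes, and Klf2 was at -0.46 with 0.0557. With gated classes, of the 5 genes only Cav1 kept an adjusted p under 0.05, and the differences of the others were 0.59 for Plvap, 0.46 for Cd34, 0.40 for Sox17 and -0.28 for Klf2. Summed macrophage markers, given above for sinusoidal-like cells, were 150 to 186 CPM in the vehicle and 55.6 to 133 CPM in the ginkgetin sums of vascular-like cells; none of the 9 markers was at 0 in all libraries, and their part in the differences was not tested.

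**Figure D4:**
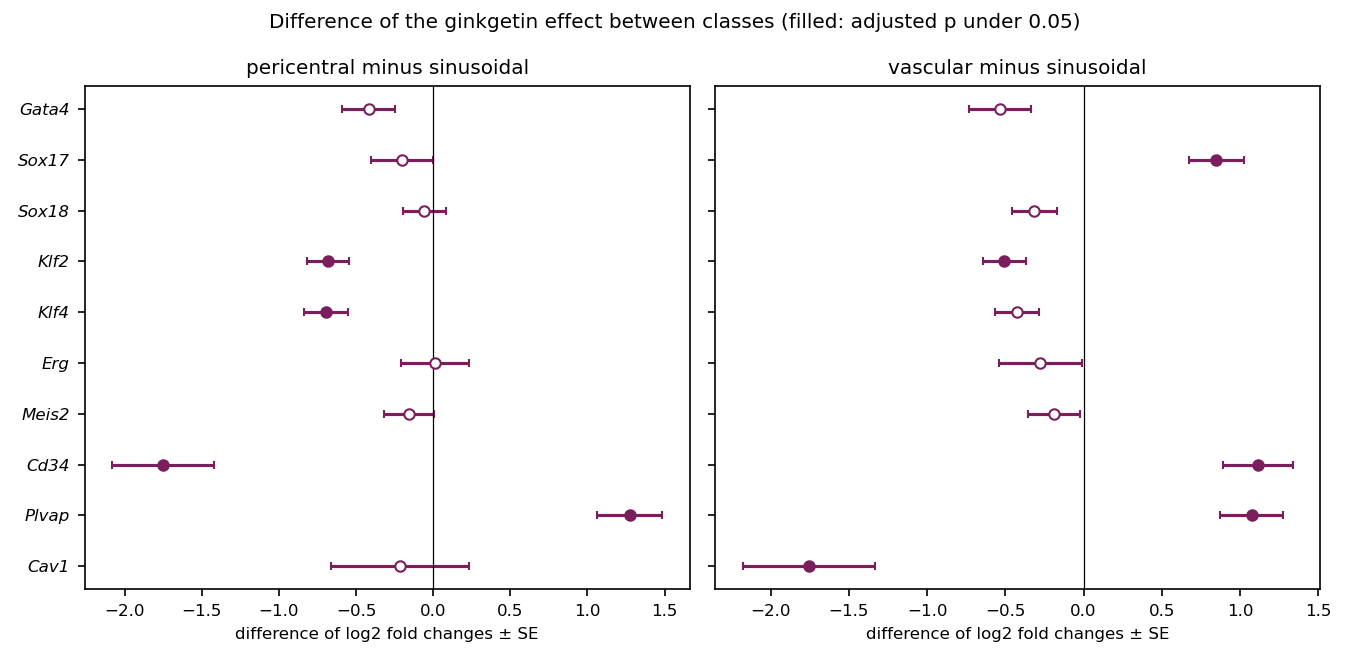
Difference of the log2 fold change (ginkgetin over vehicle) ± SE between pericentral-like and sinusoidal-like cells (left) and between vascular-like and sinusoidal-like cells (right); filled points have an adjusted p under 0.05. Plvap is above 0 in both panels, at 1.27 and 1.08, and Cd34 lies on opposite sides, at -1.75 and 1.11.

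The share of cells with a UMI gave a second reading that is less exposed to a few cells with many counts. Each cell was thinned to 1000 UMIs, which left out 6 vehicle and 5 ginkgetin cells in the sinusoidal-like class and at most 1 cell in a group elsewhere. In sinusoidal-like cells, Plvap was detected in 16.9% ± 8.45 of the cells with vehicle and 6.54% ± 2.77 with ginkgetin (SD, n = 3; 43.1% and 20.3% before thinning), Meis2 in 27.4% ± 7.25 and 42.7% ± 8.28, Klf4 in 15.5% ± 6.58 and 27.2% ± 3.60, and Cav1 in 1.48% ± 0.656 and 3.67% ± 0.638. Among pericentral-like cells, Cd34 was detected in 3.37% ± 3.01 with vehicle and 0.517% ± 0.282 with ginkgetin, and Sox17 in 13.8% ± 1.54 and 22.4% ± 1.74 of vascular-like cells. Before thinning, the shares with vehicle and ginkgetin were 62.7% and 74.9% for Meis2, 38.4% and 53.3% for Klf4, 5.49% and 12.1% for Cav1, 15.6% and 2.48% for Cd34, and 46.2% and 63.1% for Sox17 in these classes. In these 6 cases the two-sided exact permutation p for the thinned shares was 0.1, the smallest that 3 libraries against 3 allow, with an adjusted p of 0.5 over the 30 comparisons made. In T-like cells, where these 6 genes averaged 0.486 CPM (Cav1) to 16.8 CPM (Klf4), the thinned share ranged over libraries and genes from 0% for Cav1 to 2.33% for Klf4, at median depths of 3323.5 and 3209 UMIs in the 2 groups. Cd34 at 0.517% in the ginkgetin pericentral-like cells stood above its 0.119% ± 0.0532 in the ginkgetin T-like cells, with the pericentral-like cells at a median depth of 2818 UMIs. The remaining comparisons had a permutation p of 0.2 or more, with overlapping groups. Among them, Cd34 in sinusoidal-like cells was at 6.36% ± 3.70 with vehicle and 4.10% ± 2.66 with ginkgetin (permutation p 0.5). Plvap in vascular-like cells was at 40.8% ± 10.6 and 34.2% ± 7.59 (permutation p 0.6).

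The makeup of the endothelial-like cells is given beside the sums, which were made within each class. Its part in the values of the members was not tested. Sinusoidal-like cells were 71.1% ± 1.23 (SD, n = 3) of them with vehicle and 62.7% ± 3.95 with ginkgetin, pericentral-like cells 18.8% ± 2.88 and 29.8% ± 1.52, and vascular-like cells 10.1% ± 1.66 and 7.58% ± 3.28. The groups did not overlap for sinusoidal-like and pericentral-like cells (exact permutation p 0.1, adjusted p 0.15 over 3 classes) and did for vascular-like cells (exact permutation p 0.4). With gated classes the sinusoidal-like share was 1.26 percentage points higher with ginkgetin, where the difference between clusters was -8.44.

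Related genes were counted from lists, some of whose genes also mark a class (Thbd, Gja4 and Gja5) or all endothelial cells (Pecam1 and Cdh5). The lists were chosen with earlier results of these data known, so their counts against all genes are descriptions. Of 50 other endothelial transcription factors tested in sinusoidal-like cells, none was called (0.746% of all genes were), with 12 at an unadjusted p under 0.05, against 14.2% of all genes, and their median log2 fold change was 0.03, against -0.01 over all genes. The lowest p among them belonged to Twist1, a regulator of mesenchymal programs, at 63.9 CPM ± 14.9 with vehicle and 36.3 CPM ± 9.09 with ginkgetin (SD, n = 3; adjusted p 0.0550), followed by Hey1 and Lyl1, both lower with ginkgetin. In pericentral-like cells none of 47 was called, with 5 at an unadjusted p under 0.05, against 10.3% of all genes, and a median of 0.00, and Twist1 again had the lowest p, at 71.1 CPM ± 26.0 and 30.1 CPM ± 8.73, before Meis1 and Tfec, both with higher means. In vascular-like cells none of 45 was called, with 6 at an unadjusted p under 0.05, against 5.92% of all genes, and a median of 0.10. There Nr2f2, which specifies veins, was 496 CPM ± 89.6 with vehicle and 913 CPM ± 249 with ginkgetin (adjusted p 0.697), beside Hoxb5 and Meis1.

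The genes of continuous endothelium and its basement membrane held the called genes of these lists. In sinusoidal-like cells 3 of 19 were called, against 0.746% of all genes, all lower with ginkgetin, 10 had an unadjusted p under 0.05, against 14.2%, and the median log2 fold change was -0.46. Esm1, an endothelial proteoglycan, was 256, 284 and 790 CPM with vehicle and 67.8, 94.4 and 66.6 CPM with ginkgetin, a log2 fold change of -2.60 ± 0.41, adjusted p 0.0479. It is also a leading gene of sub-cluster 3, whose share was lower with ginkgetin, and the part of that share in its values was not tested. Angpt2, the antagonist ligand of the TEK receptor, was 68.5, 80.9 and 124 CPM with vehicle and 37.9, 39.4 and 46.3 CPM with ginkgetin, a log2 fold change of -1.29 ± 0.18, adjusted p 0.0352. Apln, the ligand of the apelin receptor, was 7.86, 4.99 and 9.49 CPM against 0, 0.747 and 0.862 CPM, adjusted p 0.0341. These 3 are genes of sprouting and tip cells rather than of junctions or matrix. In pericentral-like cells 1 of 18 was called, against 0.823% of all genes, the fatty acid transporter Cd36, at 1038, 851 and 1442 CPM with vehicle and 157, 187 and 387 CPM with ginkgetin (log2 fold change -2.36 ± 0.33, adjusted p 0.0257), with 6 at an unadjusted p under 0.05, against 10.3%, and the list's median was -0.30. None of 16 was called in vascular-like cells, with 0 at an unadjusted p under 0.05, against 5.92% of all genes, and a median of -0.01; the lowest p belonged to Hspg2, Esam and Cd9. Over all genes, edgeR called 30 in sinusoidal-like cells without vehicle 3 or without ginkgetin 3 and none without any 1 of the other libraries, and in pericentral-like cells 42 without vehicle 3, 34 without ginkgetin 3, 2 without vehicle 1 and none without any 1 of the rest.

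Caveolae, whose coat holds Cav1, gave no call among 6, 5 and 7 genes tested in the sinusoidal-like, pericentral-like and vascular-like classes, with 2, 1 and 1 at an unadjusted p under 0.05, against 14.2%, 10.3% and 5.92% of all genes in these classes, and medians of -0.02, -0.06 and -0.16. Cav2, the partner of caveolin-1, was 96.4 CPM ± 2.62 with vehicle and 169 CPM ± 19.4 with ginkgetin in sinusoidal-like cells (adjusted p 0.201), and 100 CPM ± 18.7 and 176 CPM ± 23.1 in pericentral-like cells (adjusted p 0.221). Cavin3 was 22.8 CPM ± 18.4 and 4.67 CPM ± 2.40 in sinusoidal-like cells, the opposite direction to Cav1 and Cav2, and 263 CPM ± 82.0 and 144 CPM ± 7.17 in vascular-like cells. The third gene by p was Cavin2 in sinusoidal-like cells, Ehd4 and Pacsin2 followed Cav2 in pericentral-like cells, and Ehd4 and Cavin1 followed Cavin3 in vascular-like cells, all with an adjusted p of 0.577 or more.

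Flow-responsive genes downstream of KLF2 and KLF4 gave no call among 21, 17 and 18 genes tested, with 4, 4 and 2 at an unadjusted p under 0.05, against the same 14.2%, 10.3% and 5.92%, and medians of -0.08, -0.01 and 0.05. Thbd, which encodes the anticoagulant receptor thrombomodulin, and S1pr1, a receptor for sphingosine-1-phosphate, had lower means with ginkgetin in the first pair of classes. Thbd was 128 CPM ± 21.0 and 71.2 CPM ± 6.54 in sinusoidal-like cells (adjusted p 0.136) and 378 CPM ± 50.8 and 204 CPM ± 35.0 in pericentral-like cells (adjusted p 0.119). S1pr1 was 252 CPM ± 113 and 146 CPM ± 39.1, and 204 CPM ± 84.5 and 111 CPM ± 11.8. The third gene by p was Pi16 in sinusoidal-like and Heg1 in pericentral-like cells, both lower with ginkgetin, and in vascular-like cells the order was Nqo1, Pi16 and Thbd.

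Arterial genes associated with the SOXF factors gave no call among 14, 10 and 13 genes tested, with 3, 4 and 1 at an unadjusted p under 0.05, against 14.2%, 10.3% and 5.92% of all genes, and medians of -0.09, -0.25 and 0.03. Nrp1, a co-receptor for VEGF, was higher with ginkgetin in every class without overlap, as were 12.1%, 10.5% and 4.55% of all genes in these classes. It was 769 CPM ± 99.5 and 1517 CPM ± 218 in sinusoidal-like cells (adjusted p 0.299) and 741 CPM ± 74.2 and 1506 CPM ± 202 in pericentral-like cells (adjusted p 0.315). In vascular-like cells it was 350 CPM ± 13.5 and 576 CPM ± 69.6 (adjusted p 0.820). Cldn5, a tight junction claudin, was 533 CPM ± 88.2 and 875 CPM ± 116 in sinusoidal-like and 435 CPM ± 101 and 985 CPM ± 134 in pericentral-like cells. Hey1 had a lower mean with ginkgetin in sinusoidal-like cells (adjusted p 0.130) and Gja4 in pericentral-like cells (adjusted p 0.289), and in vascular-like cells Jag1 and Notch4 followed Nrp1. None of the 20 immediate-early and heat shock genes was called in any class, with 7, 5 and 5 at an unadjusted p under 0.05, against these same shares of all genes, 14.2%, 10.3% and 5.92%, and medians of -0.11, -0.25 and 0.07. Hspa1a and Hspa1b were the lowest by p in vascular-like cells, where Hspa1b was 852 CPM ± 43.5 with vehicle and 100 CPM ± 79.7 with ginkgetin (adjusted p 0.149).

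Genes whose levels ran most like those of a member were found over the 18 sums of 3 classes and 6 libraries, each gene centred within its barcode set, among 3341 genes of 50 CPM or more. Cd34 ran closest to Vegfc (Pearson r 0.98) and Insr (0.95), and Plvap to Cd9 (0.93) and Kcnq1ot1 (0.92). Klf4 ran with the immediate-early gene Fos (0.90) and with Slc9a3r2 (0.90), which is on the flow list. Gata4 ran with Lifr (0.91) and Pea15a (0.91), Sox17 with Foxp1 (0.96) and Slc12a7 (0.96), and Meis2 with Dab2ip (0.93) and Thra (0.91). Erg ran with Dync1h1 (0.93) and Prrc2a (0.91), Cav1 with Eif4g3 (0.83) and Yme1l1 (0.82), Klf2 with Ppig (0.82) and Nfe2l2 (0.80), and Sox18 with Map1lc3b (0.79) and Smim7 (0.74). Among the members, Sox17 and Cd34 (r 0.82), Gata4 and Erg (0.75) and Klf4 and Meis2 (0.71) ran most alike, and Gata4 ran most oppositely to Plvap (-0.79) and Cd34 (-0.69). The 18 points share libraries and depth, so these values are descriptions.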

How the data were processed

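The authors deposited raw counts of UMIs per gene and cell barcode for 6 libraries; droplets (10x Genomics) are named in the labels and methods, whereas the labels' extraction protocol names another kit. The builds GRCm38 and mm10 are named in the submitters' processing notes, and the aligner is not given in the sources used here. The study's methods give Seurat 4.3.0 and a range of 250 to 5000 UMIs per cell; here this range was applied to genes detected, since the UMI reading, an alternative, kept 16821 cells. For 299 genes counted under different symbols in replicates 1 and 2 and in replicate 3, the older symbol was merged into the newer through RefSeq synonyms. Cells were clustered in scanpy 1.11.5 (2000 variable genes, 30 components, 15 neighbours, Leiden, resolution 1, then 0.5 for endothelial-like cells with each gene standardised within its library). Clusters were named from fixed markers by thresholds set with the data in view (for classes, a UMI in 25% of cells and a 2-fold mean). Doublets were left in; an alternative dropped the top 5% by doublet score.

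Counts were summed per library and class and tested with edgeR 4.0.16 (TMM, filterByExpr, quasi-likelihood); DESeq2 1.42.0 and limma 3.58.1 were alternatives. Labels do not say that libraries came from separate animals, so p-values measure the spread between libraries. Deviations from group means correlated at 0.261 or more between same-numbered libraries in every class, but replicates 1 and 2 correlated as well crosswise (0.211 to 0.482), so the pairing seen is that of the barcode sets. Named were the 10 members, called genes of each list or else the 3 with the lowest p, and the 2 genes most like each member. The members and lists were chosen with earlier results of these data known. Scripts were tested on simulated data.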

Additional observations from a re-analysis of the deposited data

Results flagged for a closer look

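In 9 cases the test of the difference of group effects between endothelial classes had an adjusted p under 0.05 (edgeR, library as a block). Against sinusoidal-like cells, the log2 fold change in pericentral-like cells differed by -0.68 for Klf2, -0.69 for Klf4, -1.75 for Cd34 and 1.27 for Plvap. In vascular-like cells it differed by 0.85 for Sox17, -0.51 for Klf2, 1.11 for Cd34, 1.08 for Plvap and -1.75 for Cav1.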

How the results depend on the processing

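With the replicate number as a block, edgeR called 2 members and 389 genes in sinusoidal-like cells, 1 and 263 in pericentral-like cells and 54 genes in vascular-like cells. With a block for the barcode set the counts were 2 and 419, 1 and 281, and 80. With replicates 1 and 2 only they were 3 and 308, 1 and 252, and 51. With DESeq2 they were 1 and 258, 1 and 147, and 18. With the block and cells with markers of another class left out they were 3 and 372 in sinusoidal-like cells, 220 genes in pericentral-like cells, where Cd34 was not tested, and 89 in vascular-like cells. With sub-cluster 0 left out of the sinusoidal-like class 1 member and 114 genes were called there, and 2 and 418 with the block as well. Without a filter on genes 1 member and 116 genes were called in pericentral-like and 76 genes in vascular-like cells. Without a cell filter 126 genes were called in sinusoidal-like cells, 1 member in pericentral-like cells and 5 genes in vascular-like cells, and the filter on UMIs called 1 member in pericentral-like cells and left 4 vascular-like libraries. With gated classes 1 member was called in sinusoidal-like cells, with 19 genes in pericentral-like and 7 in vascular-like cells. With cells carrying other markers left out alone, 25 genes were called in pericentral-like cells, and limma-voom called 0 in vascular-like cells. Leaving out 1 library each gave 0 to 30 genes in sinusoidal-like, 0 to 42 in pericentral-like and 0 in vascular-like cells. The cause was not tested.

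Of 587 fold changes of members within classes under other settings, 540 kept their direction and side of the threshold, 22 passed it and 25 changed sign. No member was called within a class in the main fit, so no call could be lost. The flagged differences between classes are not in this count. Over 14 other settings they had an adjusted p under 0.05 in 4 (Klf4, pericentral-like) to 13 (Plvap, vascular-like). In sinusoidal-like cells the log2 fold changes that changed sign were Sox17 (0.0821 in replicates 1 and 2; -0.33 to 0.0030 without single libraries) and Sox18 (0.0157 with sub-cluster 0 left out and 0.0357 with the replicate block as well; -0.20 to 0.0554 without single libraries). In pericentral-like cells they were Gata4 (-0.0028 to 0.47 without single libraries), Sox17 (0.0534 without a cell filter), Klf2 (0.27 with the UMI filter, 0.0903 gated) and Klf4 (-0.0192 to 0.52 without single libraries). In vascular-like cells they were Gata4 (-0.32 with the UMI filter, -0.0233 without cells with other markers, -0.0617 with the replicate block as well), Klf2 (0.11 with the UMI filter, 0.0125 gated), Erg (-0.0240 with the replicate block) and Cd34 (0.11 with the UMI filter). Without single libraries these ran from -0.0765 to 0.46 for Gata4, from -0.50 to 0.0991 for Klf2, from -0.66 to 0.68 for Erg and from -0.28 to 0.22 for Cd34. Members whose effect differed from sinusoidal-like cells numbered, for pericentral-like cells, 2 in replicates 1 and 2, 1 with the UMI filter, 2 without a cell filter, 1 without cells with other markers, 0 gated and 1 to 3 without single libraries. For vascular-like cells they numbered 1 with the UMI filter, 1 gated and 3 to 6 without single libraries. The difference in the share of sinusoidal-like cells was -3.93 percentage points with the UMI filter, -2.51 without a cell filter and 1.26 gated. For pericentral-like cells it was 2.81 and 6.17 under the first pair, and for vascular-like cells 1.11 with the UMI filter and -10.5 gated.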

Other observations

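Sinusoidal-like cells came from 3 sub-clusters, which differed in the level of Klf2 and Klf4. Klf2 averaged 1824, 874 and 916 CPM and Klf4 407, 186 and 232 CPM in them, and the summed immediate-early and heat shock genes averaged 8986, 3582 and 6840 CPM. The first sub-cluster had the highest mean of each, and the other 2 differed in Klf2 and Klf4 by less than the spread over libraries. Plvap averaged 186, 103 and 144 CPM, and in each of the 3 its mean was lower with ginkgetin. In the third sub-cluster, led by Cxcl9, Lyve1 and Esm1, Cd34 averaged 114 CPM with vehicle and 44.9 CPM with ginkgetin. These are descriptions, since the sub-clusters were made from the same cells.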
